A study of Mus musculus with 6 samples.

Results

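The Hox genes encode homeodomain transcription factors that give cells their position along the body axis. They are represented here by 37 probe sets, chosen as those whose single gene symbol in the platform annotation is Hoxa, Hoxb, Hoxc or Hoxd followed by a paralog number. These are 37 of the 21789 probe sets with 1 gene symbol, which cover 19938 genes, and no brightness filter was applied, since most of them are dim in this tissue. Each stands for a different gene, 10 in the Hoxa cluster on chromosome 6, 9 in Hoxb on chromosome 11, 9 in Hoxc on chromosome 15 and 9 in Hoxd on chromosome 2. A further probe set, shared by Hoxb8 and Hoxb7, is not among them.

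The samples were 3 heads labelled Tasp1 knockout (KO-labelled) and 3 labelled wild type (WT-labelled), each from 1 C57Bl6 embryo at E10.5 from crosses between Tasp1+/- mice. Only the prosencephalon and mesencephalon, the future forebrain and midbrain, were dissected, and 100 ng of total RNA per head was labelled with biotin and read on 1 Affymetrix array. The labels call them biological replicates and write the KO genotype as Tasp1-/-, and they do not say which exons are removed. The values are deposited log2 signals, and every difference is the KO-labelled mean minus the WT-labelled mean, in log2 units.

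Hox genes stand in the same order on the chromosome as their zones of expression along the body, with paralogs of low number active farthest forward. Their foremost limits lie in the hindbrain, and forebrain and midbrain are the part of the neural tube that normally keeps them silent. The histone methyltransferases MLL1 (Kmt2a) and MLL2 (Kmt2b), both cleaved by the protease Taspase1, maintain Hox expression where it has been set up, and Polycomb complexes keep the genes off elsewhere. The comparison asks whether Hox signals differ between heads labelled Tasp1 knockout and heads labelled wild type.

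MLL1 carries a domain that binds unmethylated CG dinucleotides, so upstream sequences are shown for 3 members. They are a cited MLL target (Hoxa9), its Hoxd paralog (Hoxd9) and the Hoxb gene of lowest number (Hoxb1). The sequences are RefSeq's, build GRCm38.p6, and each is the 250 bases before the annotated start, 5′ to 3′ on the gene's strand. In Hoxa9 (chr6:52227371-52227620, minus strand) and Hoxd9 (chr2:74697513-74697762, plus strand) the capitals mark CG, which occurs 3 times in Hoxa9 and 13 times in Hoxd9. In Hoxb1 (chr11:96365508-96365757, plus strand) they mark the match to TGATNNAT, a recognition sequence of HOX and PBX proteins together. That match lies 162 to 155 bases before the start. An element upstream of mouse Hoxb1 with such sites is known to maintain Hoxb1 in the fourth segment of the hindbrain.
Hoxa9: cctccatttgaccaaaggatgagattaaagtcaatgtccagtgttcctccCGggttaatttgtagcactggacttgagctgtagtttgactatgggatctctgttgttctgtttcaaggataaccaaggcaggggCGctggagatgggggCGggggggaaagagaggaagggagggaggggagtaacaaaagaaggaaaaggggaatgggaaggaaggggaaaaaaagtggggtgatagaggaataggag
Hoxd9: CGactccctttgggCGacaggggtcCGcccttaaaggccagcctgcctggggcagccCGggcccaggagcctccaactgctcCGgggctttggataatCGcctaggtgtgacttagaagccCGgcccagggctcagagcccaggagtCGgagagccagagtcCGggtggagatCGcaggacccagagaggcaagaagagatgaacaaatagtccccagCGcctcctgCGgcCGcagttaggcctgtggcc
Hoxb1: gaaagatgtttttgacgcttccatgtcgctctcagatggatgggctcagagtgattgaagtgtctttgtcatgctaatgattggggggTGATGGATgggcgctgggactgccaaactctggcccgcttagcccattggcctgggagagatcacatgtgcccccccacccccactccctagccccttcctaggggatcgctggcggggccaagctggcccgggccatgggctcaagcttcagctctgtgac

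RefSeq's promoter table held 23 windows for 21 of the 37 genes. These 300-base windows had a median of 15 CG dinucleotides, against 7 in all 32841 windows of the table, and 19 of the 23 had more than 7. The counts ran from 4 to 45, with the most in Hoxa13, and a median of 58% of the Hox bases were G or C, against 52.7% over all windows. TATAAA on either strand occurred in 3 of the 23 Hox windows (13%) and in 13.6% of all windows. TGATNNAT on either strand occurred in 3 of the 23 (13%), those of Hoxb1, Hoxa2 and 1 of Hoxd11, and in 8.85% of all. The motifs are matches of letters and no evidence of binding. Both windows of Hoxa10 and of Hoxd11 are counted.

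No Hox gene passed the test for a difference between KO-labelled and WT-labelled heads. In limma, 0 of the 37 probe sets passed an adjusted p of 0.05, and none passed anywhere among the 21789 tested (0%). At an unadjusted p under 0.05 there were again 0 Hox probe sets, against 6.21% of all probe sets tested (3.89% lower and 2.32% higher). The smallest unadjusted p among them was 0.077 (Hoxc8) and the adjusted p-values ran from 0.829 to 0.998. The groups did not overlap for 2 of the 37, Hoxb3 and Hoxd11, both lower in KO-labelled heads, against 10.9% of all probe sets (6.76% lower and 4.15% higher). The number of arrays limits the exact two-sided permutation test: with 3 heads against 3 it cannot give a p below 0.1, which only Hoxb3 and Hoxd11 reached.

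The differences were small and mostly negative. The KO-labelled mean was the lower for 31 of the 37 Hox probe sets, against 56.3% of all probe sets, and the median difference was −0.07, against −0.01 over all. In such mixed tissue, fewer cells of a type and less RNA per cell cannot be told apart. The differences ranged from −0.21 to +0.04, and 8 of them exceeded the larger of the 2 group SDs. The matching share over all probe sets was not counted, so that 8 has no background. All 37 confidence intervals (95%, limma) included 0, and all lay within 1.5-fold in either direction. The lowest bound was −0.58, a ratio of 0.67 (Hoxd12), and the highest +0.21, a ratio of 1.16 (Hoxd10). All Hox means lie within the range of the means of silent genes (olfactory receptors, below). The intervals therefore bound the ratio of signals and not the ratio of transcripts. After quantile normalization 27 of the 37 were lower, against 50.4% of all probe sets, with a Hox median of −0.05 and a median over all of −0.00073. After median centring 27 of the 37 were again lower, against 45.4% of all, with a Hox median of −0.05 and a median over all of +0.0091.

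**Figure D1:**
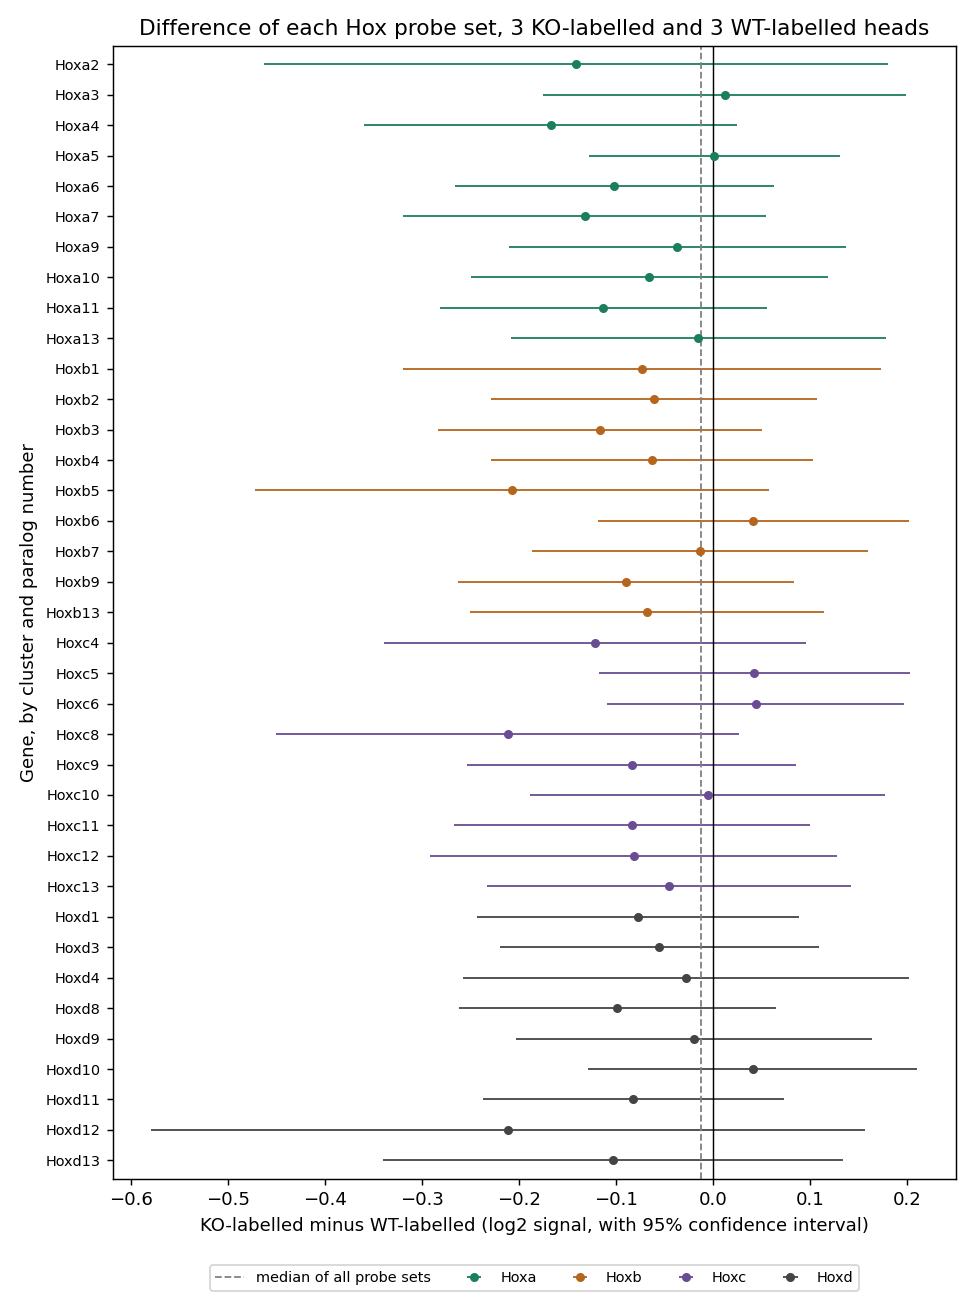
Difference of each Hox probe set between 3 KO-labelled and 3 WT-labelled heads, in log2 signal on the horizontal axis, with its 95% confidence interval from limma. Genes run down by cluster and paralog number, the solid line is 0 and the dashed line the median over all probe sets tested; every one of the 37 intervals crosses 0.

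To set the Hox signals beside those of silent genes, olfactory receptor genes were taken as a yardstick. They are used in the olfactory sense organ of later life and not in embryonic brain. The 1023 olfactory receptor probe sets had a median mean signal of 4.53 and a 95th percentile of 6.35. The 37 Hox means over the 6 heads ran from 4.12 to 7.49 with a median of 5.82, and 1 of them lay below the olfactory receptor median. Only 5 of them exceeded the 95th percentile: Hoxb3 at 7.49, Hoxb1 at 7.46, Hoxa4 at 7.23, Hoxb9 at 6.64 and Hoxd9 at 6.52. The same number did so on each array, and 3 (Hoxb3, Hoxb1 and Hoxa4) exceeded the 99th percentile of 7.20. The brightest olfactory receptor probe set averaged 8.99, so all 37 Hox means lay within the range of the olfactory receptor means. A probe set's brightness also depends on the sequence of its probes, so these figures give no order of transcript levels between genes. No detection calls were used.

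**Figure D2:**
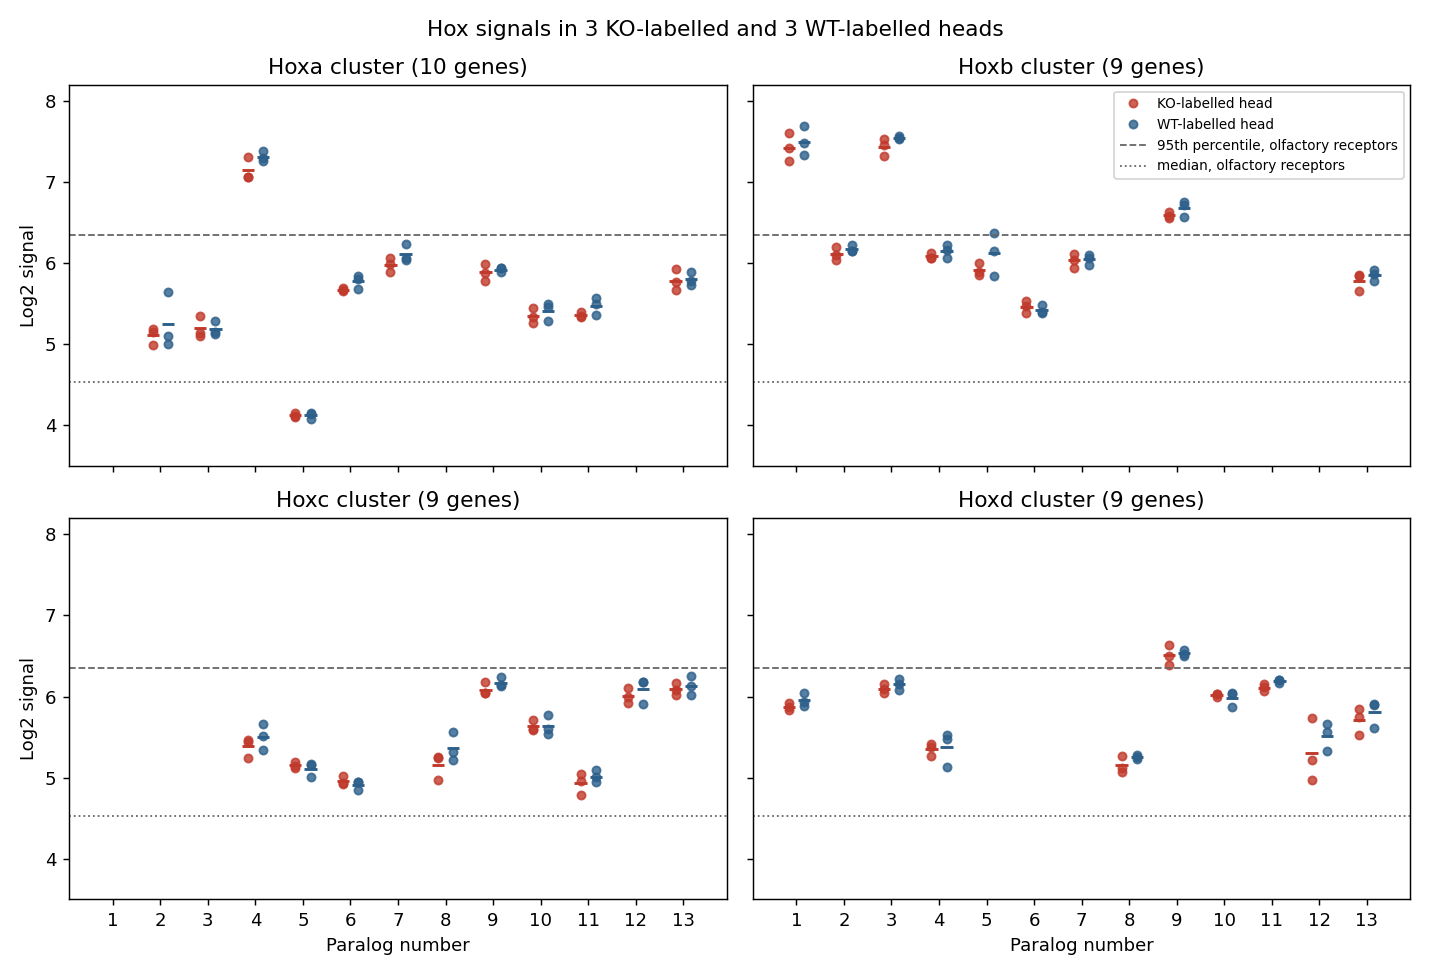
Log2 signal of each Hox probe set by paralog number, 1 panel per cluster, with 1 point per head, KO-labelled left of WT-labelled, and a short bar at each group's mean. The dashed and dotted lines mark the 95th percentile (6.35) and the median (4.53) of the olfactory receptor means; Hoxb3, Hoxb1, Hoxa4, Hoxb9 and Hoxd9 lie above the dashed line, and KO-labelled and WT-labelled points lie at similar heights in every gene.

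Among the foremost paralogs, Hoxb1 (probe set 10380665), which sets the identity of the fourth hindbrain segment, read 7.42, 7.26 and 7.61 in KO-labelled heads and 7.48, 7.69 and 7.33 in WT-labelled heads. The ranges overlapped almost wholly, with means of 7.43 ± 0.18 in KO-labelled heads, against 7.501 ± 0.18 in WT-labelled ones (SD, n = 3 each), a difference of −0.07 (limma SE 0.11, adjusted p = 0.94). Hoxd1, its counterpart in the Hoxd cluster, averaged 5.88 ± 0.04 in KO-labelled heads, against 5.95 ± 0.08 in WT-labelled ones (SD, n = 3 each; difference −0.08), below the olfactory receptor 95th percentile. Hoxa2, which patterns the second pharyngeal arch and the hindbrain, read 4.99, 5.15 and 5.18 in KO-labelled heads and 5.002, 5.65 and 5.10 in WT-labelled heads. Only WT 2 stood out, and without it the Hoxa2 difference of −0.14 turned to +0.058. Hoxb2, also a hindbrain gene, averaged 6.11 ± 0.08 in KO-labelled heads, against 6.18 ± 0.04 in WT-labelled ones (SD, n = 3 each; difference −0.06).

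Hoxb3 (probe set 10380654), expressed in the hindbrain farther back than Hoxb1, was the brightest Hox probe set. It read 7.32, 7.5278 and 7.45 in KO-labelled heads and 7.55, 7.5281 and 7.57 in WT-labelled heads. The groups were apart by the last digits of KO 2 and WT 2 alone. Its mean was 7.43 ± 0.11 in KO-labelled heads, against 7.55 ± 0.02 in WT-labelled ones (SD, n = 3 each), and the ratio of 0.92 did not pass (limma, difference −0.12, SE 0.08, adjusted p = 0.87). The exact two-sided permutation p was 0.1. Of its paralogs, Hoxa3, needed for thymus and parathyroid, differed by +0.01 and Hoxd3, a gene of the neck vertebrae, by −0.05. RefSeq's gene table (GRCm38.p6) draws Hoxb3, Hoxa3 and Hoxd3 across Hoxb4, Hoxa4 and Hoxd4, and the files do not give the probes' positions, so signals of such overlapping pairs cannot be told apart.

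Of the paralogs numbered 4, all 4 had the lower mean in KO-labelled heads. Hoxa4 (probe set 10544763), which acts in the neck vertebrae, read 7.07, 7.06 and 7.31 in KO-labelled heads and 7.26, 7.39 and 7.30 in WT-labelled heads. KO 1 and KO 2 lay below every WT-labelled head, whereas KO 3 lay among them. Its mean was 7.15 ± 0.14 in KO-labelled heads, against 7.32 ± 0.07 in WT-labelled ones (SD, n = 3 each), and the ratio of 0.89 did not pass (limma, difference −0.17, SE 0.09, adjusted p = 0.84). Hoxb4, known from blood stem cells, Hoxc4 and Hoxd4 differed by −0.06, −0.12 and −0.03.

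The central paralogs, active in trunk and spinal cord, were all below the olfactory receptor 95th percentile on average. Hoxc8 (probe set 10427290), a regulator of spinal motor neurons and of the rib cage, had the largest negative difference of all members. It read 5.24, 4.97 and 5.26 in KO-labelled heads and 5.57, 5.31 and 5.22 in WT-labelled heads. KO 2 was low and WT 1 high, with the other 4 heads close together, and the ratio of 0.86 did not pass (limma, difference −0.21, 95% interval −0.45 to 0.03, adjusted p = 0.83). Hoxb5, a gene of neural crest in the gut, read 6.004, 5.89 and 5.85 in KO-labelled heads and 6.37, 6.15 and 5.84 in WT-labelled heads. Its difference of −0.21 rested on WT 1 and WT 2, since WT 3 lay below every KO-labelled head, and it did not pass (limma adjusted p = 0.86). Hoxa6 and Hoxd8 differed by −0.102 and −0.098, with overlapping groups. Hoxa5, a gene of lung development, was the dimmest member, at 4.13 ± 0.02 in KO-labelled heads, against 4.12 ± 0.04 in WT-labelled ones (SD, n = 3 each), below the median of the olfactory receptors. Of the 6 members with a positive difference, 4 were paralogs 5 or 6, namely Hoxa5, Hoxb6, Hoxc5 and Hoxc6, at +0.0016 to +0.04.

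None of the genes most often cited as MLL targets passed the test. Hoxa9 (probe set 10544788), which MLL fusion proteins drive in leukaemia, read 5.89, 5.78 and 5.996 in KO-labelled heads and 5.94, 5.89 and 5.94 in WT-labelled heads. The WT-labelled values lay inside the KO-labelled range, and the difference was −0.04 (limma, 95% interval −0.21 to 0.14, adjusted p = 0.96). Hoxa7, its neighbour, averaged 5.98 ± 0.09 in KO-labelled heads, against 6.12 ± 0.11 in WT-labelled ones (SD, n = 3 each; difference −0.13). Hoxa10, a gene of the lumbar spine and uterus, Hoxc9, a trunk gene of spinal motor neurons, and Hoxc8 completed the 5. All 5 were lower in KO-labelled heads, against 31 of all 37 Hox probe sets and 56.3% of all probe sets tested. They were lower by 0.04 to 0.21, with a median of −0.08, against −0.07 over the 37. Of the 5, 0 were called and 0 had separate groups. Each of the 5 was dimmer on average than the olfactory receptor 95th percentile.

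Posterior paralogs pattern the lower trunk, limbs and tail and have no known role in the anterior head. Hoxd11 (probe set 10472953), a forelimb and kidney gene, had the other pair of separate groups, at 6.15, 6.07 and 6.12 in KO-labelled heads and 6.20, 6.21 and 6.17 in WT-labelled heads. The gap between the groups was small beside the spread of other members, and the ratio of 0.94 did not pass (limma, difference −0.08, SE 0.07, adjusted p = 0.90). Here too the exact two-sided permutation p was 0.1. Hoxd12, a limb gene, varied most between heads, from 4.97 in KO 2 to 5.74 in KO 3. Hoxb9 and Hoxd9, both trunk genes, were the posterior members above the olfactory receptor 95th percentile, and differed by −0.09 and −0.02. The digit genes Hoxa13 and Hoxd13 differed by −0.02 and −0.10, and Hoxa11 by −0.11. Over paralogs 9 to 13, 15 of 16 were lower (median −0.07), against 6 of 10 over paralogs 5 to 8 (median −0.06) and 10 of 11 over paralogs 1 to 4 (median −0.07).

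The median difference was −0.08 for Hoxa (8 of 10 lower), −0.07 for Hoxb (8 of 9 lower), −0.08 for Hoxc (7 of 9 lower) and −0.08 for Hoxd (8 of 9 lower). Hoxd lies on chromosome 2, as Tasp1 does. The 28 Hox probe sets outside that chromosome had a median of −0.07, with 23 lower. A test of the difference between clusters was not run. The probe set shared by Hoxb8 and Hoxb7 averaged 5.71 ± 0.12 in KO-labelled heads, against 5.69 ± 0.05 in WT-labelled ones (SD, n = 3 each).

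The small shift was uneven among the heads of each group. The mean over the 37 Hox probe sets was 5.77, 5.73 and 5.86 in KO-labelled heads and 5.88, 5.91 and 5.77 in WT-labelled heads. WT 3 lay level with KO 1, and KO 3 close to WT 1, so the groups overlapped. WT 2 was the highest head in 14 of the 37 probe sets and WT 1 in 11, whereas KO 2 was the lowest in 19 and WT 3 in 9. The dimmest 40% of all probe sets (8716) also had their lowest mean in KO 2 and their highest in WT 2, with means of 5.55, 5.53 and 5.58 in KO-labelled heads and 5.58, 5.60 and 5.54 in WT-labelled heads, over a narrower range. Their median difference was −0.02, with 59.4% lower in KO-labelled heads, and that of the olfactory receptors was +0.0009, with 49.6% lower. The part of such array-wide variation in the Hox differences was not tested.

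**Figure D3:**
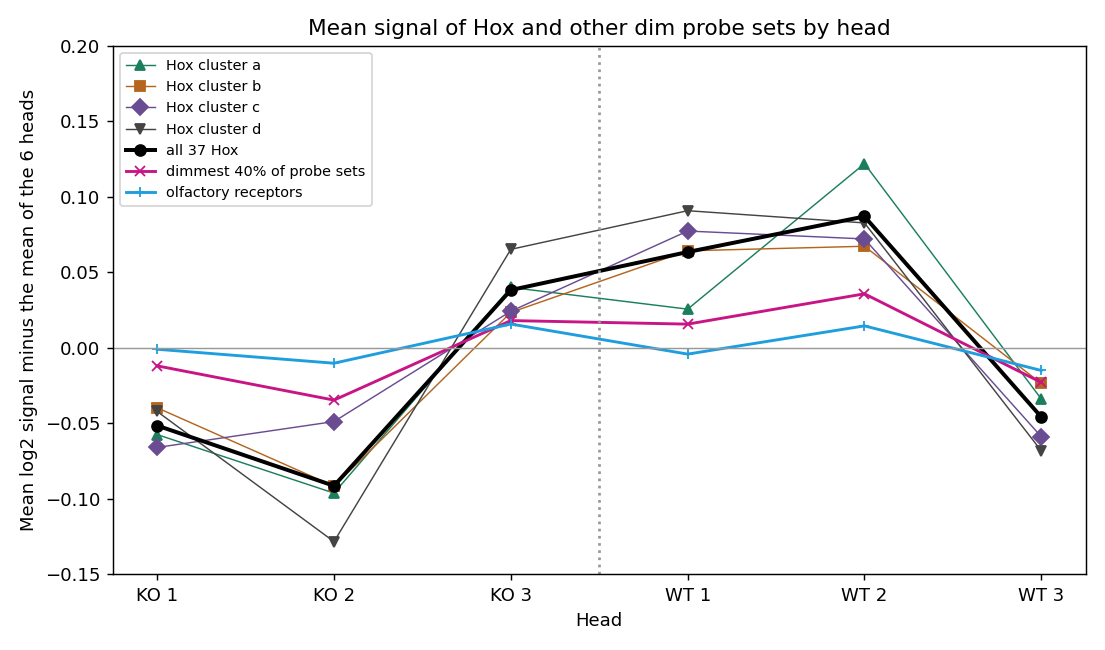
Mean log2 signal of the Hox probe sets, of each cluster, of the dimmest 40% of probe sets and of the olfactory receptors in each head, as the deviation from the mean of the 6 heads. KO-labelled heads are left of the dotted line; the Hox line is lowest in KO 2 and highest in WT 2, with WT 3 below KO 3, and the line of the dimmest 40% is also lowest in KO 2 and highest in WT 2, over a narrower range.

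The arrays were alike over the probe sets tested, with Pearson correlations between pairs, across probe sets, from 0.996 to 0.998. WT 1 lay apart in a principal component analysis, with a first-component score of 16.9, against −10.1 to 5.15 in the rest. WT 2 alone had a high Xist signal and low signals of the 3 Y-linked genes read, so sex was not balanced between the groups. Those Y-linked genes read 4.52 to 5.48 in WT 2, within the range of the Hox signals, and Xist read 4.90 to 5.24 in the other 5 heads. Tasp1 (probe set 10488090) read 8.63, 8.63 and 8.498 in KO-labelled heads and 8.10, 8.45 and 8.49 in WT-labelled heads. Every KO-labelled head thus read higher than every WT-labelled one, though the difference did not pass (limma adjusted p = 0.79). Where the probes lie relative to the deletion is unknown here, so this signal checks nothing. Without KO 2, the lowest head in 19 of the 37, the Hox median difference was −0.04 with 25 of 37 lower. Without WT 1 the Hox median difference was −0.05 with 28 of 37 lower, and without WT 2 it was −0.05 with 27 lower.

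Cofactors that bind DNA together with Hox proteins had mean signals from 7.65 (Pknox1) to 11.45 (Pbx3) and small differences. Of 9 TALE-class cofactor genes, 8 were tested, 2 higher and 6 lower, with a median of −0.0040 and 0 called. Meis1, a cofactor and itself a target of MLL in blood cells, read 10.09, 10.17 and 9.98 in KO-labelled heads and 9.83, 10.04 and 10.19 in WT-labelled heads. The groups overlapped, with a difference of +0.06 (limma, 95% interval −0.13 to 0.25, adjusted p = 0.93). Pbx3 had separate groups, higher in KO-labelled heads, at 11.47 ± 0.02, against 11.42 ± 0.02 in WT-labelled ones (SD, n = 3 each; difference +0.05, limma adjusted p = 0.89). The remaining members with the smallest p were Pknox2 and Pknox1, relatives of Meis1, at −0.04 and −0.03.

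Genes that activate Hox genes and homeobox genes related to them were not called either. Of the upstream activators (7 of 9 tested, 5 lower, median −0.05), Egr2, which drives Hox genes in the hindbrain, differed by −0.20 (limma, 95% interval −0.41 to 0.01, adjusted p = 0.83). The retinoic acid receptor genes Rarb and Rara differed by +0.10 and −0.05, and Cdx1, an activator of trunk Hox genes, by −0.09. Of the ParaHox and Hox-linked genes (9 tested, 7 lower, median −0.06), Gsx1, a regulator of neural progenitors, had separate groups. It read 7.39, 6.95 and 7.24 in KO-labelled heads and 7.41, 7.49 and 7.46 in WT-labelled heads. Its difference of −0.26 did not pass (limma adjusted p = 0.79), and KO 2 was its lowest head. Evx2, which lies beside Hoxd13, differed by −0.13, Gbx2 by −0.16 and Gsx2 by −0.13.

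The non-coding genes of the Hox clusters had differences in both directions, none of which passed over all probe sets. Of 16 genes listed, 10 were tested with 11 probe sets, 9 of them lower, with a median of −0.08, and 0 were called. An unadjusted p under 0.05 was reached by 3 of the 11 (6.21% over all probe sets), and 4 of the 11 had separate groups (10.9% over all). Hoxd3os1, an antisense transcript at Hoxd3, was lower in both of its probe sets. The dimmer of them (10483800) read 4.83, 4.84 and 4.95 in KO-labelled heads and 5.11, 5.08 and 5.18 in WT-labelled heads. The groups were separate, with a difference of −0.25 (limma, 95% interval −0.40 to −0.09, unadjusted p = 0.0046, adjusted p = 0.59). The other Hoxd3os1 probe set (10483797) differed by −0.17, also with separate groups. Hottip, a long RNA beside Hoxa13 that binds the WDR5 subunit of MLL complexes in human cells, differed by −0.18 with separate groups (limma adjusted p = 0.79). Hoxaas2, a non-coding gene of the Hoxa cluster, had separate groups in the other direction, at 5.77 ± 0.10 in KO-labelled heads, against 5.53 ± 0.05 in WT-labelled ones (SD, n = 3 each; difference +0.23, limma adjusted p = 0.71). All 4 of these probe sets averaged below the olfactory receptor 95th percentile of 6.35, the brighter one of Hoxd3os1 only just, at 6.34.

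MicroRNA genes of the miR-10 and miR-196 families sit between Hox genes and have Hox transcripts among their known targets. They are shown because their genes belong to the same clusters, as mature sequences from RefSeq, 5′ to 3′, with the seed (bases 2 to 8) in capitals.
mmu-miR-10a-5p: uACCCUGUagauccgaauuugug
mmu-miR-10b-5p: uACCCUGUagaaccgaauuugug
mmu-miR-196a-5p: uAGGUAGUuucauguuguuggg
mmu-miR-196b-5p: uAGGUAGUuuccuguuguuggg

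The miR-10 pair shares 1 seed and differs by U12A (miR-10a first), and the miR-196 pair shares the other and differs by A12C (miR-196a first), with positions counted from the 5′ end. Mir10a lies beside Hoxb4 and Mir10b beside Hoxd4, and the miR-196 genes lie beside the paralogs numbered 9 of Hoxb, Hoxc and Hoxa. Their probe sets are annotated by gene, and which of its RNAs they read is not stated. Mir10a averaged 3.71 ± 0.03 in KO-labelled heads, against 3.81 ± 0.16 in WT-labelled ones (SD, n = 3 each). Mir10b averaged 3.54 ± 0.13 in KO-labelled heads, against 3.58 ± 0.10 in WT-labelled ones (SD, n = 3 each). Mir196b differed by −0.01, Mir196a-1 by −0.0064 and Mir196a-2 by −0.12. None was called.

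The genes of the complexes that maintain or silence Hox genes were mostly bright in both groups. Of the MLL1/MLL2 complex, 10 of 10 genes were tested, 5 higher and 5 lower, with a median of +0.0013 and 0 called. Kmt2a averaged 11.01 ± 0.08 in KO-labelled heads, against 10.89 ± 0.23 in WT-labelled ones, and Kmt2b 9.75 ± 0.04 in KO-labelled heads, against 9.73 ± 0.09 in WT-labelled ones (SD, n = 3 each). Wdr5, a shared core subunit, differed by −0.11, Ash2l by +0.07 and Rbbp5 by +0.08. Of the Polycomb genes, 18 of 19 were tested with 20 probe sets, 10 higher and 10 lower, with a median of −0.0016 and 0 called. Phc3, a subunit of the first Polycomb complex, was read by a pair of probe sets that differed by +0.29 (separate groups, limma adjusted p = 0.36) and +0.05. Suz12, a subunit of the second, differed by +0.10 with separate groups, and Phc2 by −0.11, also with separate groups. Ezh1, at +0.07, was the last of the 4 Polycomb probe sets of 20 with separate groups, against 10.9% over all probe sets.

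Markers of the dissected region differed in brightness, from Hesx1 at a mean of 5.11 over the 6 heads, below the olfactory receptor 95th percentile, to Otx2 at 11.45. Otx2, the gene that marks forebrain and midbrain, read 11.47 ± 0.11 in KO-labelled heads, against 11.43 ± 0.15 in WT-labelled ones (SD, n = 3 each). Of 7 hindbrain markers other than Hox, Egr2, Atoh1 and Ptf1a were below the olfactory receptor 95th percentile on average. Gbx2 at 7.37, Fgf3 at 6.42, Barhl1 at 7.62 and Lmx1b at 8.66 were above it. Lmx1b and Barhl1 are also used ahead of the hindbrain. The mean signal of those 7 ran from 6.70 to 6.85 in KO-labelled and from 6.73 to 6.94 in WT-labelled heads. They had a median difference of −0.08, with 6 of 7 lower. The 7 spinal cord and tail markers had a median difference of −0.07, also with 6 of 7 lower. Mean signals of the latter ran from 6.58 to 6.71 in KO-labelled and from 6.64 to 6.74 in WT-labelled heads. Fgf8, the brightest spinal cord and tail marker at 8.25, was the only one of that list that was higher, by +0.02. The lists share genes with those of activators and Hox-linked genes. These list differences are of the size of the Hox one, and their part in it was not tested.

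Other markers included 11 of head mesenchyme and neural crest (8 lower, median −0.04), 6 of erythroid cells (6 lower, −0.14) and 9 of macrophages (7 lower, −0.07), with 0 called. The mean signals of these lists ran from 9.19 to 9.37 in KO-labelled and 9.30 to 9.38 in WT-labelled heads for mesenchyme. For erythroid cells they ran from 10.34 to 10.43 in KO-labelled heads, against 10.47 to 10.59 in WT-labelled ones. For macrophages they ran from 7.07 to 7.23 in KO-labelled heads, against 7.25 to 7.31 in WT-labelled ones. In both blood lists the ranges of KO-labelled and WT-labelled heads were thus apart, lower in KO-labelled heads. Their part in the Hox differences was not tested. Polycomb list means were apart the other way, at 9.3602 to 9.3643 in KO-labelled heads, against 9.3406 to 9.3593 in WT-labelled ones. Over single probe sets, 10.9% had separate groups. Of these marker lists, the smallest p-values belonged to Sox10 (−0.38) for neural crest, the embryonic globin Hbb-bh1 (−0.21) and the complement gene C1qb (−0.30). The lists were not uniform: the brighter embryonic globins Hba-x and Hbb-y differed by −0.02 and −0.0005. The 2 macrophage markers with a higher mean were Cx3cr1 (+0.11) and Mrc1 (+0.0034), and 3 of the mesenchyme and neural crest list were higher. Of the 11 forebrain and midbrain markers, 6 were lower (median −0.06), with Lhx2 at −0.33, Emx2 at −0.32 and Emx1 at −0.27 in front. These 3 of the 11 had separate groups, against 10.9% over all probe sets. None of them passed over all probe sets (limma adjusted p 0.30 to 0.59). For the spinal cord list the gene with the smallest p was Wnt3a (−0.25), which is also made in the dorsal brain.

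**Figure D4:**
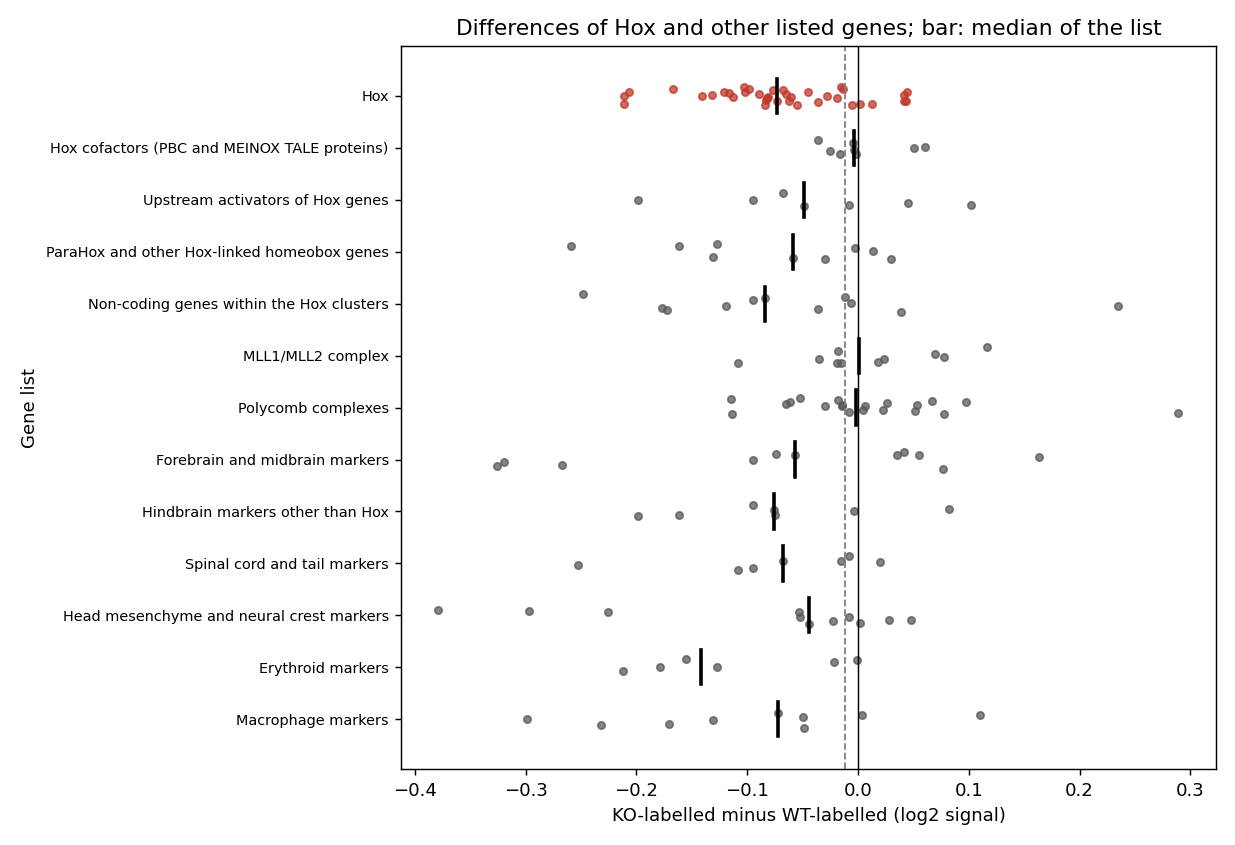
Differences of single probe sets, KO-labelled minus WT-labelled in log2 signal, for the Hox genes (top row) and the 12 other lists, with a bar at each list's median. The dashed line is the median over all probe sets tested (−0.01); the Hox dots span −0.21 to +0.04, with a median of −0.07, while the cofactor, MLL and Polycomb medians lie at 0 to within 0.0040.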

How the data were processed

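The series matrix deposited by the authors gives log2 signals of 35556 probe sets on 6 arrays. Per the submitters' processing notes, Affymetrix Expression Console and MAS5 were used, without versions or roles. The sources used here do not say how background, scaling and summary were done. Signals lay between 2.73 and 14.4, with array medians of 7.35 to 7.45, and were used without further scaling or pseudocount. Genes were named from the platform annotation: 21789 probe sets had 1 symbol and were tested, 1621 had several, and 12146 were unlisted. All 37 Hox symbols matched the gene table of GRCm38.p6, which served for names, chromosomes and neighbours.

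Groups were compared with limma 3.58.1 in R 4.3.3 (lmFit, two-sided eBayes with the trend option, Benjamini-Hochberg over the 21789), without a brightness filter, and single values by exact permutation. Alternatives changed the scaling, an added constant, the filter, the probe sets tested, the variance model, the block and the heads included. No set test was run. Members, lists and alternatives were chosen with earlier results of these data known. Genes were named by rule: the 10 brightest Hox probe sets, the 8 with the smallest p, 5 cited MLL targets, paralogs 1 to 3, and up to 4 members per other list with the smallest p. Others were named after their values were seen. Both groups carry replicate numbers 1 to 3 in the labels, with no pairing stated, so no block was used. Correlations of same-numbered heads' deviations were −0.14, −0.14 and −0.29. The fit was tested on simulated data. Promoter and miRNA sequences are RefSeq's, matched by symbol. Figures were drawn with matplotlib 3.10.9.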

Additional observations from a re-analysis of the deposited data

How the results depend on the processing

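The count of Hox probe sets called was 0 in the reported fit and under the 10 alternatives that keep all heads and the 6 that leave out 1 head. The Hox median difference of −0.07 kept its sign throughout, from −0.12 (40% dimmest left out, 3 Hox probe sets tested) to −0.03 (64 added on the linear scale). Leaving out single heads gave −0.11 to −0.04. At an unadjusted p under 0.05 there were 0 Hox probe sets, or 0 to 2 with a head left out, 2 without KO 3 or without WT 3. The share of all probe sets under that p was not counted with a head left out, so these counts lack a background. The count of separate groups, 2 in the reported fit, was 0 after quantile normalization, 1 after median centring and 1 with the 40% dimmest left out. With a head left out it was 2 to 16, the highest without WT 3, where 25.3% of all probe sets were separate, and 9 without KO 3 (25.5%) and 5 without KO 1 (20.2%). Over all probe sets, 0 were called in the reported fit, 1 after median centring, 9 among all probe sets of the table, 2 with 1 probe set per gene and 0 to 8 with a head left out, 8 without KO 1 and 1 without WT 1. The causes of these changes were not tested. With the replicate number as a replicate block 0 Hox probe sets were called and the Hox median was −0.07. The block changed no call. Of 21 named Hox differences under these alternatives, 307 of 318 values kept their direction. Hoxd9 turned to +0.011 after quantile normalization and +0.0019 after median centring. With a head left out, Hoxd9 ran from −0.084 to +0.041, Hoxb1 from −0.16 to +0.022, Hoxa9 from −0.091 to +0.017, Hoxa2 from −0.27 to +0.058 and Hoxa3 from −0.061 to +0.061. With the 99th percentile of the olfactory receptors as the limit, 3 Hox probe sets lay above it, in place of 5. Signals within the range of silent genes limit what can be seen: a change of transcripts there gives a smaller change of signal.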
